A study of Homo sapiens with 4 samples.

Results

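The Jumonji histone demethylases examined here were KDM3A, KDM3B, KDM4A, KDM4B, KDM4C, KDM2B, KDM5B, KDM5C and KDM6B, 9 of 20175 protein-coding genes in the GENCODE annotation of GRCh37, the build with the coordinates of hg19. They were chosen as lysine demethylase genes of the Jumonji family, and 9 of 9 were found in the annotation. Chromatin immunoprecipitation with sequencing (ChIP-seq) had been performed with an antibody to HAUSP in the lung cancer line H1299 and the breast cancer line MDA-MB-231, and with an antibody to HIF-1α in H1299. Each of the 3 peak lists came from 1 library of cells grown in medium with fetal serum, and no transgene, knockdown or drug is named for them. The oxygen level of the cultures and the control for peak calling are not given in the sources used here, and the H1299 input was not analysed here. With 1 library per list no difference between lists was tested, and antibody, cell line and library cannot be told apart.

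HAUSP (USP7) removes ubiquitin from other proteins. HIF-1α is the oxygen-regulated subunit of the transcription factor HIF-1, which binds the core sequence ACGTG or GCGTG in hypoxia response elements. Jumonji demethylases carry a JmjC domain that uses iron, 2-oxoglutarate and molecular oxygen to take methyl groups off lysines of histones. KDM3A and KDM3B act on methylated H3K9, the KDM4 enzymes on H3K9 and H3K36, KDM2B mainly on H3K36, KDM5B and KDM5C on H3K4, and KDM6B on H3K27. Several of these genes, KDM3A and KDM4B among them, are known targets of hypoxia.

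At least 1 peak of any list lay in the gene body or within 20 kb of the start of the gene at 5 of the 9 genes, namely KDM3A, KDM3B, KDM4B, KDM4C and KDM5C. The same held for 17.0% of all protein-coding genes. HAUSP peaks of H1299 were found at all 5, against 6.39% of all genes. HAUSP peaks of MDA-MB-231 were found at KDM3A and KDM4B, against 4.21% of all genes. HIF-1α peaks were found at KDM3A, KDM4B, KDM4C and KDM5C, against 9.68% of all genes. The bodies of the 9 genes were long, with a median of 83993 bp against 27195 bp for all protein-coding genes. When the gene body was left out and the window of 20 kb kept, the HAUSP peaks of H1299 were at 4 of the 9 genes, those of MDA-MB-231 at 2 and the HIF-1α peaks at 2. The corresponding shares of all genes were 5.34%, 2.91% and 4.48%. The genes were chosen with earlier results of these data known, so these counts describe the genes and give no test of the family.

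ACGTG cores of the hypoxia response element under peaks at or near a start site are listed below. Their part in the peaks was not tested. The ACGTG matches under the HAUSP peaks in an intron of KDM4B are left out of the list. Each listed core is shown in capitals within 30 bases of the reference, on the strand on which it reads ACGTG. Positions are of hg19.
KDM3A, chr2:86667833-86667862, plus strand: acgatcagtaccACGTGcgcctgcgcctcc
KDM3A, chr2:86667950-86667979, minus strand: gcagggaagagaACGTGcggtttcaggcgt
KDM4B, chr19:4968589-4968618, minus strand: caccggccgggaACGTGcaggctggaggtt
KDM4B, chr19:4968625-4968654, minus strand: cggcggctgagtACGTGagacccagcacag
KDM4B, chr19:4968872-4968901, plus strand: cggtcagcgggcACGTGggtgggcgccggc
KDM4C, chr9:6757339-6757368, plus strand: ggtcggggcgggACGTGctgggtgtaggtg
KDM4C, chr9:6757658-6757687, plus strand: gcgcccaggaggACGTGtggcgcgtggact
KDM4C, chr9:6757899-6757928, plus strand: gtttgtaagcccACGTGactcaccaagtgc
KDM4C, chr9:6757931-6757960, plus strand: gccccagcggtcACGTGacggcgcgcgcgc
KDM5C, chrX:53254638-53254667, minus strand: actggcctttaaACGTGcaccgccggtcca

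In the first KDM3A line, the third KDM4B line and the last 2 KDM4C lines a c stands before the core, so that the site reads CACGTG, a palindrome, and the core occurs on both strands at the same place. Such a place is counted once where places are given below, and on each strand where matches on both strands are given. The cores of the first KDM4C line and of the KDM5C line lie under a HAUSP peak of H1299 alone. The core of the third KDM4B line lies under the HAUSP peaks of both lines but beyond the end of the HIF-1α peak. The other 7 cores lie under peaks of both proteins.

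**Figure D1:**
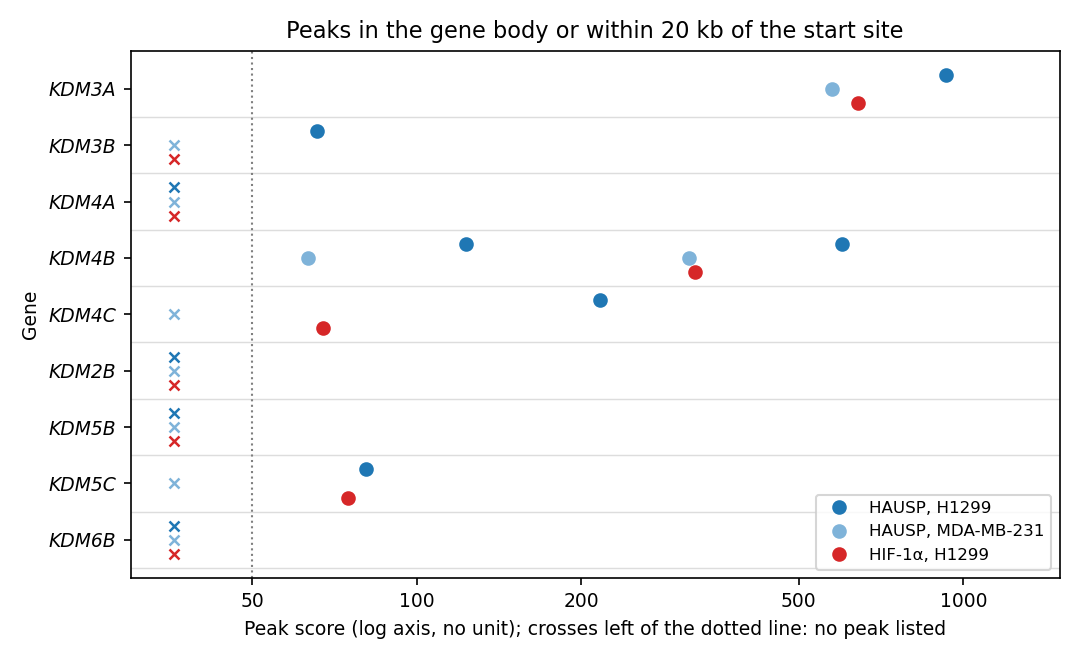
Score of each peak in the gene body or within 20 kb of the start of the 9 demethylase genes (log axis, no unit), with a colour for each list and 1 point per peak. Crosses mark lists with no peak at the gene, and the dotted line marks a score of 50, about the lowest in each list. KDM3A and KDM4B have points in every colour, and KDM4A, KDM2B, KDM5B and KDM6B have crosses only.

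KDM3A, an eraser of methyl groups on H3K9, held the highest scores of the 9 genes in all 3 lists. The gene lies on the plus strand of chromosome 2 from 86667770 to 86719839. HAUSP gave a peak at 86667372-86668620 in H1299 that scored 930.15 and ranked 13 of 1379 peaks. In MDA-MB-231 its peak, at 86667335-86668647, scored 574.36 and ranked 21 of 1343. HIF-1α gave a peak at 86667734-86668433 that scored 641.43 and ranked 3 of 4054. The files do not name the scale of the score. It was taken to be that of the peak caller MACS, which grows as the p-value of the peak falls, and was compared only within a list. The lists hold no score under 50.

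The peaks at KDM3A lay almost on top of each other. The HAUSP peak of H1299 was wholly covered by that of MDA-MB-231, over 1249 of 1313 bp, and their centres were 5 bp apart. The HIF-1α peak of 700 bp lay wholly inside both, with its centre 87 bp from that of the H1299 HAUSP peak. The 5 protein-coding transcripts of KDM3A have several start sites, of which 4 lay inside the HAUSP peaks and 2 inside the HIF-1α peak. Among HAUSP peaks of H1299 within 500 bp of the start of any protein-coding gene's transcript, that of KDM3A ranked 2 of 457. In MDA-MB-231 it ranked 2 of 162, and among HIF-1α peaks at such starts it ranked 3 of 164. The locus was 999587 bp from an assembly gap in the H1299 HAUSP list, just inside the 1 Mb used below to set aside peaks near gaps.

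Both ACGTG places of KDM3A lay inside the peaks of all 3 lists. They were 77 and 195 bp downstream of the gene start, in sequence annotated as untranslated exon. A GCGTG lay at 17 bp downstream inside all 3 peaks, and others at -334 and 700 bp from the start lay inside the HAUSP peaks but outside the HIF-1α peak. The HIF-1α peak thus held the ACGTG places and 1 of the 3 GCGTG matches.

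KDM4B, an eraser of methyl groups on H3K9 and H3K36, was the other gene with a peak of every list near its start. It lies on the plus strand of chromosome 19 from 4969124 to 5153609. HAUSP of H1299 peaked at 4967982-4968969, scoring 600.77 and ranking 25 of 1379. HAUSP of MDA-MB-231 peaked at 4968074-4968950, scoring 314.64 and ranking 73 of 1343. HIF-1α peaked at 4968122-4968862, scoring 322.3 and ranking 11 of 4054. Unlike the peaks of KDM3A, these ended before the annotated start, by 155, 174 and 262 bp in the same order, and no annotated start of a KDM4B coding transcript lay inside them.

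The HIF-1α peak of KDM4B, 741 bp wide, lay wholly inside the HAUSP peaks of both lines, and its centre was 17 bp from that of H1299 and 20 bp from that of MDA-MB-231. Among peaks at starts of protein-coding genes it ranked 9 of 164 for HIF-1α, 4 of 457 for HAUSP in H1299 and 10 of 162 for HAUSP in MDA-MB-231. The nearest start of another gene was that of UHRF1, 64890 bp from the H1299 HAUSP peak. The stretch below, chr19:4968596-4968895 on the plus strand, runs from -528 to -229 bp relative to the KDM4B start, outside the KDM4B gene. ACGTG and its complement CACGT are in capitals.
KDM4B upstream: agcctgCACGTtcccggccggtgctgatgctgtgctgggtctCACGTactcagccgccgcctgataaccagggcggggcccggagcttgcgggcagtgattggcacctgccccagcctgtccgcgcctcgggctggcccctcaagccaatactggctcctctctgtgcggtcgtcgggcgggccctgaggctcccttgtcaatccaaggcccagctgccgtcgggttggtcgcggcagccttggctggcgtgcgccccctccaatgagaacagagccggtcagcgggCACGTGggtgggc

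The first and second capitals lie at -520 and -484 bp from the start, inside the HIF-1α peak. The third, the palindrome, lies at -239 bp, past the end of the HIF-1α peak and inside both HAUSP peaks. The H1299 HAUSP peak of KDM4B therefore held 3 ACGTG places and the HIF-1α peak 2.

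A second pair of HAUSP peaks lay in an intron of KDM4B and had no HIF-1α peak over it. The H1299 peak, at 5018657-5020635, scored 122.96 and ranked 285, and the MDA-MB-231 peak, at 5019462-5020485, scored 63.22 and ranked 897. The MDA-MB-231 peak lay wholly inside that of H1299. Its sequence was repetitive: 60.4% of the words of 12 bases in the H1299 peak and 71.8% of those in the MDA-MB-231 peak occurred more than once in that peak, and GGTGTTGGTGTG occurred 41 times in the former. In each of the 11 other peaks at the 9 genes 0% of such words occurred more than once. The median over all peaks was 1.13% in the H1299 HAUSP list, 26.4% in the MDA-MB-231 HAUSP list and 0% in the HIF-1α list. At least 50% of words were repeated in 157 HAUSP peaks of H1299, in 266 of MDA-MB-231 and in 0 HIF-1α peaks. The part of the repeat to the HAUSP signal was not tested. A stretch of it, chr19:5019476-5019655 on the plus strand, is shown with the complement of ACGTG in capitals.
KDM4B intron: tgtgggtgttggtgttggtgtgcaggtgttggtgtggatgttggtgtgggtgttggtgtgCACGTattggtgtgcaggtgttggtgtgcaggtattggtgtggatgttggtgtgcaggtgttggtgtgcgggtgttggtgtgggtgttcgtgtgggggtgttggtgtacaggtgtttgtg

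KDM4C, a paralogue of KDM4B with the same histone targets, had overlapping peaks of both proteins in H1299 and no HAUSP peak in MDA-MB-231. The gene lies on the plus strand of chromosome 9 from 6720863 to 7175648. HAUSP peaked at 6756880-6758207, scoring 216.29 and ranking 142 of 1379, and HIF-1α at 6757570-6757954, scoring 67.46 and ranking 602 of 4054. Their near edges were 36017 and 36707 bp downstream of the outermost start. They lay over a start site inside the gene instead, that of transcript ENST00000401787.7 at 6757654, and the HAUSP peak held the starts of 4 of the 7 coding transcripts. The HIF-1α peak of 385 bp lay wholly inside the HAUSP peak.

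The HAUSP peak of KDM4C held 4 ACGTG places, the most of the 13 peaks at these genes. Counted from the start at 6757654 they were at -301, 18, 259 and 291 bp, and the last 3 lay inside the HIF-1α peak. The HIF-1α score of KDM4C was low beside those of KDM3A and KDM4B: it ranked 73 of the 164 peaks at starts of protein-coding genes, whose median was 62.2. The HAUSP peak ranked 26 of 457, with a median of 66.9. In MDA-MB-231 the nearest HAUSP peak on the chromosome was 12440568 bp from the outermost start, so the list held none at the gene.

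KDM5C, an eraser of methyl groups on H3K4, had a HAUSP peak and a HIF-1α peak in H1299 that did not meet. The gene lies on the minus strand of chromosome X from 53205465 to 53254604. The HAUSP peak lay over the start, at 53254074-53254967, scored 80.81, ranked 563 of 1379 and held the starts of 8 of 9 coding transcripts. The HIF-1α peak lay in an intron, at 53215524-53216138, with its near edge 38466 bp from the start, and it scored 74.75 and ranked 283 of 4054. The HAUSP peak held 1 ACGTG place, at -49 bp from the start. The intronic HIF-1α peak held 0 matches to ACGTG, to GCGTG and to the core ATGGCG described below, and was the only HIF-1α peak at the 9 genes without ACGTG or GCGTG. Its G+C content was 45.4%, against 55.0% at KDM3A, 58.0% at KDM4B, 62.6% at KDM4C and a median of 36.6% in the HIF-1α list. Both peaks of KDM5C lay within 1 Mb of an assembly gap.

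KDM3B, the paralogue of KDM3A, had a HAUSP peak of H1299 only by the width of the window. The peak, at chr5:137673096-137674010, scored 65.74 and ranked 817 of 1379, and its near edge was 14364 bp upstream of the KDM3B start at 137688374. It lay 34 bp from the start of CDC25C, a gene for a phosphatase of the cell cycle. It held 0 ACGTG places and 2 GCGTG matches. The nearest HAUSP peak of MDA-MB-231 was 834726 bp from the KDM3B start and the nearest HIF-1α peak 331172 bp.

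**Figure D2:**
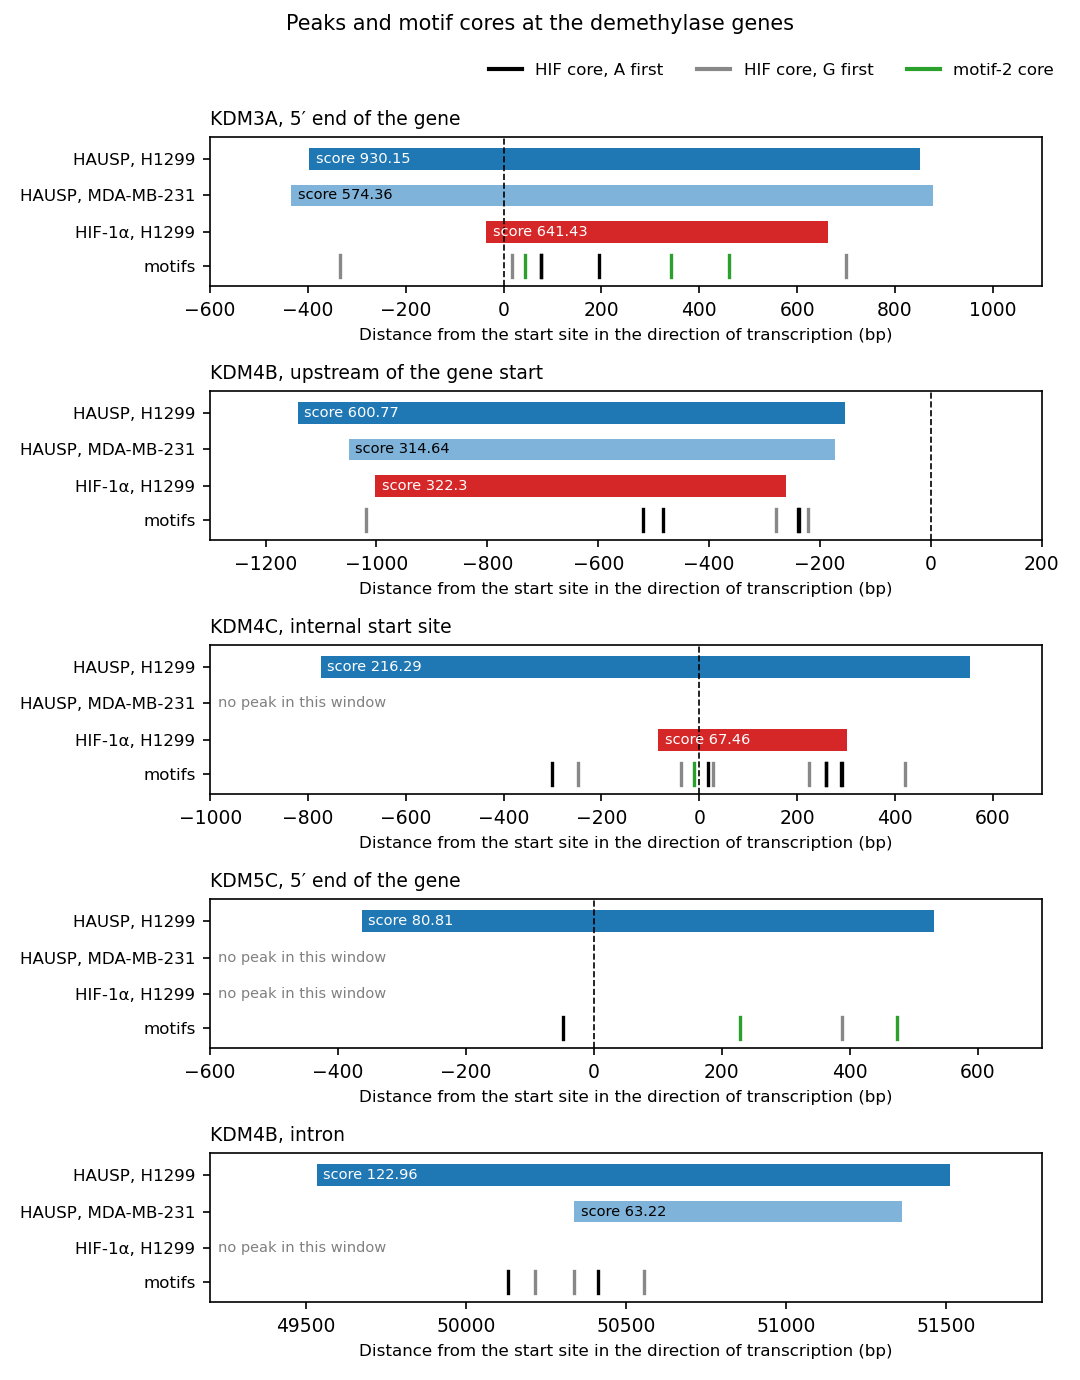
Peaks of the 3 lists (bars, with their scores) and motif cores inside the peaks (ticks below) against the distance in bp from the start site, drawn in the direction of transcription. Zero is the start of the gene except at KDM4C, where it is the internal start at 6757654. At KDM3A, KDM4B and KDM4C the HIF-1α bar lies inside the HAUSP bar, and no HIF-1α bar is present in the windows drawn at the KDM5C start and in the KDM4B intron. The intronic HIF-1α peak of KDM5C lies outside its window.

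KDM4A (chr1:44115820-44171189), KDM2B (chr12:121866899-122018928), KDM5B (chr1:202693623-202777615) and KDM6B (chr17:7737535-7758114) had no peak of any list in the body or within 20 kb. KDM6B, which removes methyl groups from H3K27, came closest: a HAUSP peak of H1299 with a score of 56.2 lay on chromosome 17 from 7760942 to 7762053. It was 23407 bp from the KDM6B start, 2828 bp past the end of the KDM6B body and over the start of the neighbouring gene CYB5D1. For KDM5B, an H3K4 demethylase, HAUSP peaks of both lines lay 182909 bp (H1299) and 183030 bp (MDA-MB-231) from the start, and the nearest HIF-1α peak was 212533 bp away. For KDM4A the nearest peaks were 264635 bp (HIF-1α) and 295820 bp (HAUSP, H1299) away. For KDM2B, a demethylase that also recruits a Polycomb complex to CpG islands, they were 337006 bp (HAUSP, H1299) and 1105781 bp (HIF-1α) away. A gene without a peak was below the caller's threshold in that library, and at unknown depth this does not show that the protein was absent.

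**Figure D3:**
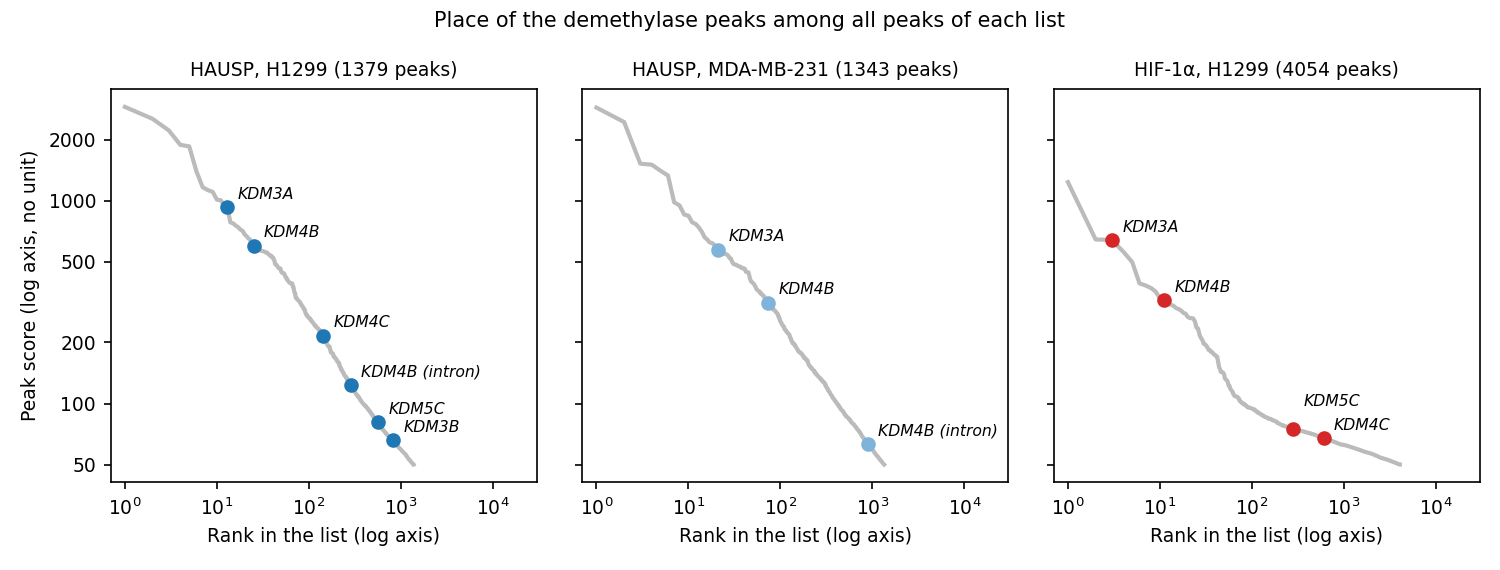
Score of every peak against its rank within each of the 3 lists (grey line, both axes log), with the peaks at the demethylase genes marked. The peaks at the start of KDM3A and upstream of KDM4B stand at ranks 13 and 25, 21 and 73, and 3 and 11, while the HIF-1α peaks of KDM5C and KDM4C stand at 283 and 602.

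HAUSP and HIF-1α peaks of H1299 overlapped by at least 1 bp at 3 of the 9 genes, KDM3A, KDM4B and KDM4C, against 0.768% of all protein-coding genes. In all 3 pairs the HIF-1α peak was wholly inside the HAUSP peak. That was also so for 99 of the 110 overlapping pairs in the full lists, or 90.0%. The centres of the 3 pairs were 87, 17 and 219 bp apart, and the median over the 110 pairs was 106 bp. HAUSP peaks of both lines overlapped at KDM3A and KDM4B, against 1.64% of all genes. A HAUSP peak of H1299 that overlapped a peak of both other lists was present at KDM3A and KDM4B, against 0.416% of all genes. Of the 77 protein-coding genes with an overlapping HAUSP and HIF-1α pair at a transcript start, 35 had no MDA-MB-231 HAUSP peak there, and KDM4C was among them. With the 3 lists meeting at a transcript start the share of all genes was 0.213%, and KDM3A and KDM4B belonged to it.

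Counted at the promoter, 500 bp on either side of the outermost start, HAUSP peaks of H1299 were at KDM3A, KDM4B and KDM5C, 3 of 9 genes, against 2.07% of all genes. HAUSP peaks of MDA-MB-231 were at KDM3A and KDM4B, against 0.540%, and HIF-1α peaks at the same genes, against 0.406%. When the start of every annotated transcript was allowed, KDM4C was added for HAUSP and HIF-1α of H1299. The shares of all genes were then 2.74% for HAUSP in H1299, 0.897% for HAUSP in MDA-MB-231 and 0.867% for HIF-1α.

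On either strand ACGTG occurred in 5 of 6 HAUSP peaks of H1299 at these genes, in 3 of 3 of MDA-MB-231 and in 3 of 4 HIF-1α peaks. The 95% Clopper-Pearson intervals of these shares were 35.9% to 99.6%, 29.2% to 100% and 19.4% to 99.4%, for counting error only. They treat the peaks as independent draws, which peaks of chosen genes are not. In the 200 bp around the centre ACGTG occurred in 1 of 6, 2 of 3 and 1 of 4 peaks. Those 200 bp are narrower than each of these peaks, and no share of all peaks was computed for them. The counts therefore do not tell where in the peaks the cores tend to lie. Peaks of the lists overlap at KDM3A, KDM4B and KDM4C, so these counts share sequence. Over all peaks at full width the shares were 63.5%, 59.2% and 20.7%, and in flanks of the same width 2000 bp from each peak they were 47.7%, 47.4% and 18.5%. GCGTG was present in 6 of 6, 3 of 3 and 3 of 4 peaks, against 66.6%, 63.4% and 12.7% of all peaks and 55.8%, 54.9% and 19.0% of flanks. Within 500 bp of the gene start, ACGTG was found at 52.6% and GCGTG at 74.1% of all protein-coding genes.

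The core ATGGCG of YY1 sites, which the study's motif-2 resembles, was present in the HAUSP peaks of H1299 at KDM3A, KDM4C and KDM5C, and in 24.3% of all peaks of that list. It was also inside the HIF-1α peaks of KDM3A and KDM4C, against 3.16% of all HIF-1α peaks, and inside the MDA-MB-231 HAUSP peak of KDM3A, against 17.0%. In flanks the shares were 22.1% (HAUSP, H1299), 5.64% (HIF-1α) and 19.2% (HAUSP, MDA-MB-231). Within 500 bp of the gene start, ATGGCG was found at 31.9% of all protein-coding genes. The HIF-1α peaks of KDM3A and KDM4C had 55.0% and 62.6% G+C, against a median of 36.6% in their list. The peaks of KDM4B held 0 matches. The sites are shown as 30 bases on the strand of the core, with the core in capitals, because they differ in what follows it.
KDM3A, chr2:86667800-86667829, plus strand: ttatccttcaaaATGGCGgactttagacgt
KDM3A, chr2:86668098-86668127, minus strand: agataagactgaATGGCGagaccctgagct
KDM3A, chr2:86668217-86668246, plus strand: aagaataggcctATGGCGgagggatcactc
KDM4C, chr9:6757628-6757657, minus strand: cgacgcgcacctATGGCGgcctccgacgcg
KDM5C, chrX:53254116-53254145, plus strand: ccttaaggactcATGGCGccgccgctgttt
KDM5C, chrX:53254361-53254390, minus strand: tgacaaaccaagATGGCGgcggcggcgctg

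At KDM3A the 3 sites lay 44, 342 and 461 bp downstream of the gene start, inside the peaks of all 3 lists. At KDM4C the site lay at -12 bp from the start at 6757654, inside both peaks. At KDM5C the sites lay 229 and 474 bp downstream of the start.

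The cores were also present at demethylase genes that had no peak. Within 500 bp of the gene start ACGTG was found at 6 of the 9 genes, namely KDM3A, KDM4A, KDM4B, KDM2B, KDM5B and KDM5C, against 52.6% of all protein-coding genes. Of these, KDM4A, KDM2B and KDM5B had no peak of any list. KDM4C, whose peaks lie at an internal start, had 0 matches at its outermost start. GCGTG was found at 8 of the 9 genes, against 74.1% of all, and ATGGCG at 5, against 31.9%. The highest counts were at KDM4B, with 3 matches of ACGTG and 5 of GCGTG on both strands, and at KDM3A, with 3 of ACGTG and 3 of ATGGCG. With the palindrome CACGTG counted once, KDM4B and KDM3A each had 2 ACGTG places there. The mean over all genes was 1.02 matches of ACGTG, 1.83 of GCGTG and 0.408 of ATGGCG.

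**Figure D4:**
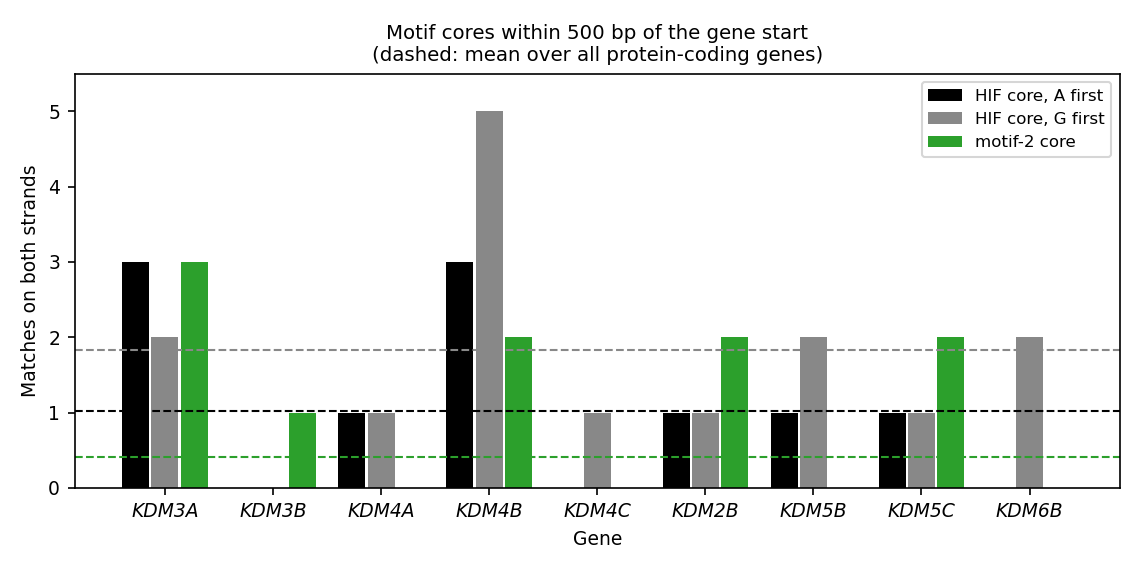
Matches on both strands to the 3 cores within 500 bp of the outermost start of each of the 9 genes (bars), with the mean over all protein-coding genes for each core (dashed lines, 1.02 for the HIF core with A first, 1.83 with G first and 0.408 for the motif-2 core). Bars for the HIF core with A first are present at KDM4A, KDM2B and KDM5B, which have no peak, and absent at KDM3B, KDM4C and KDM6B.

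Of 23 other genes for proteins with a JmjC domain, 3 had a peak, against 17.0% of all protein-coding genes, and 0 had overlapping peaks of 2 lists. With 0.768% of all genes holding overlapping peaks of both proteins and 1.64% overlapping HAUSP peaks of both lines, a count of 0 in 23 genes does not set them apart. HIF1AN, the asparaginyl hydroxylase that modifies HIF-1α itself, had a HAUSP peak of H1299 with a score of 54.41, rank 1171 of 1379, whose near edge was 376 bp downstream of the start. That peak also covered the start of the overlapping gene ENSG00000255339. JMJD1C, a relative of KDM3A, had a HAUSP peak of MDA-MB-231 with a score of 58.79 and a HIF-1α peak with a score of 52.93 in its body, 307770 and 314906 bp from the start. PHF2, an H3K9 demethylase, had an intronic HAUSP peak of MDA-MB-231 with a score of 63.43. All 4 scores lay below the median of 71.05, 75.71 or 56.4 in their own list. In the 32 genes of the family together, HAUSP peaks of H1299 were at 6, HAUSP peaks of MDA-MB-231 at 4 and HIF-1α peaks at 5. The 9 members, chosen with earlier results of these data known, made up 5, 2 and 4 of these. In the same order the 23 other genes made up 1, 2 and 1. The shares of all protein-coding genes were 6.39%, 4.21% and 9.68%.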

How the data were processed

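ChIP-seq peaks of HAUSP (H1299 and MDA-MB-231) and HIF-1α (H1299) were analysed from 3 of 4 samples. Per the submitters' notes and methods, the authors aligned reads with Bowtie 0.12.7 to hg19, keeping those with a single position, and ran MACS 1.4.2 with default settings. The deposited files hold a region and a score per peak, and the score was used for ranks and a minimum within a list. Depth per library was unknown, so no value was weighed by it, and 1 library per list allowed no test.

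Starts were converted to count from 1. Genes came from GENCODE release 44 mapped to GRCh37. A peak was assigned to a gene if it touched the body or 20 kb around the outermost TSS, to a promoter if it touched 500 bp around it. Assembly gaps were runs of at least 50 kb without sequence. Cores were searched on both strands. The members and gene lists were chosen with earlier results of these data known. Every member and peak was named, as were listed genes with a promoter peak or overlapping peaks. The interval and motif code was tested on simulated data. The work used samtools 1.23.1 and, under Python 3.11.15, pysam 0.24.0, pandas 2.3.3, numpy 2.4.6, matplotlib 3.10.9 and scipy 1.17.1.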

Additional observations from a re-analysis of the deposited data

How the results depend on the processing

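No paired analysis was possible because every list has 1 library only. Of 54 alternatives over 14 counts and shares, 39 left a count within 1.5 times the reported one or a share inside its 95% Clopper-Pearson interval. With counts this small and intervals this wide, some alternatives could hardly fall outside these limits. Wider windows can only add genes. With scores of at least 100, 3 members kept a HAUSP peak of H1299 and 2 a HIF-1α peak. In the family of 32 genes the counts were 3 for HAUSP in H1299, 2 in MDA-MB-231 and 2 for HIF-1α, all of them members. Setting aside peaks less than 1 Mb from an assembly gap, which removes KDM3A and KDM5C, 3 members had a HAUSP peak of H1299, 1 of MDA-MB-231 and 2 a HIF-1α peak. Peaks so near a gap were 521 of 1379 HAUSP peaks of H1299, 508 of 1343 of MDA-MB-231 and 201 of 4054 HIF-1α peaks. Without the gene body 2 members had a HIF-1α peak. In the family 2 genes had a HAUSP peak of MDA-MB-231 and 2 a HIF-1α peak, again all of them members. With the peak centre inside the promoter window, KDM3A was the 1 member left for HAUSP of MDA-MB-231 and for HIF-1α, since the peaks of KDM4B lie upstream. Shares of all protein-coding genes were not computed for the score minimum, the gap filter or the peak centre. Those counts thus have no background beside them. The share of H1299 HAUSP peaks with ACGTG was 100% when GCGTG also counted and 16.7% in the 200 bp around the centre. In those 200 bp the share fell from 100% to 66.7% for HAUSP in MDA-MB-231 and from 3 of 4 to 1 of 4 peaks for HIF-1α, which the wide intervals of so few peaks still cover. No share of all peaks was computed for those 200 bp. Overlap of both proteins at KDM3A and KDM4B held at a score of at least 100 and with a larger minimum overlap. It also held when the window around the start was cut to 5 kb with the gene body kept. None of these settings could have removed KDM3A or KDM4B. There the HIF-1α peak lay wholly inside the HAUSP peak and near the start, with both scores above 100. KDM4C was lost only at the score minimum, and in the 5 kb setting its peaks counted through the gene body. Setting aside peaks near gaps, not run for the overlap, removes KDM3A.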

Other observations

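Among 19 genes for histone methyltransferases, which place the marks that the demethylases remove, HAUSP peaks of H1299 were at KMT2B and NSD1, HAUSP peaks of MDA-MB-231 at SETD2 and HIF-1α peaks at EZH2 and NSD1. With any list counted, 4 of the 19 had a peak, against 17.0% of all protein-coding genes. None of the 19 had overlapping peaks of 2 lists, against 0.768% of all genes for both proteins in H1299 and 1.64% for HAUSP in both lines, shares at which 0 of 19 does not set them apart. NSD1, a methyltransferase of H3K36, had a HAUSP peak of H1299 with a score of 52.26 whose edge lay 13 bp upstream of the start. Its HIF-1α peak lay in an intron, 62309 bp from the start, with a score of 151.0 that ranked 44 of 4054, above those of KDM4C and KDM5C and below those of KDM3A and KDM4B. That peak held 2 matches of ACGTG. The HIF-1α peak of EZH2, the H3K27 methyltransferase of Polycomb, had a score of 83.37, rank 164, and held 0 matches of ACGTG or GCGTG.

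Of 4 genes for hydroxylases of HIF-1α, 3 had a peak of any list, against 17.0% of all protein-coding genes, which gives no test of the set. EGLN2 had a HIF-1α peak in an intron with a score of 57.6, and HIF1AN the HAUSP peak of H1299 described above. EGLN3 had an intronic HAUSP peak of MDA-MB-231 with a score of 227.81, rank 116 of 1343. It counted through an annotated body of 538548 bp. Its near edge was 523719 bp from the outermost start and 11771 bp from the nearest start of a coding transcript. The EGLN2 peak also touched the 500 bp around the start of an annotated transcript. It lay 677 bp from the nearest start of a coding transcript, whereas the peaks of KDM4C held starts of coding transcripts. EGLN1 had no peak of any list. KDM1A and KDM1B, demethylases that use flavin and carry no JmjC domain, had no peak of any list.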
